A study of Mus musculus with 6 samples.

Results

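The genes described here are 9 adhesion genes of leukocytes, measured by RNA-seq in mouse eosinophils: the ligand gene Icam1, the selectin ligand gene Selplg and the integrin subunit genes Itgal, Itgam, Itgax, Itga4, Itgb1, Itgb2 and Itgb7. They were taken by their symbols from 4 deposited tables and make up 9 of 22548 genes. Eosinophils are granulocytes of allergic inflammation and of the defence against worms. The cells were grown out of low-density marrow cells, and the mice were wild-type, BALB/c and 4 to 8 weeks old. Stem cell factor and FLT3 ligand (100 ng/ml each) were present until day 4, and IL-5 (10 ng/ml) from then on. At day 14 the cultures received 10 ng/ml of IL-33 for 1 h or 4 h, 10 ng/ml of IL-4 for 1 h or 4 h, or neither cytokine for 1 h (Control 1 h) or 4 h (Control 4 h). All 6 groups had thus been kept in IL-5 before, and the labels do not say how many mice were pooled. The series' title concerns IL-33 responses that do and do not depend on IL-4 made by the cells themselves. With 1 library in each group, differences have no replicate check, and conditions are compared without p-values.

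Leukocytes leave the blood in steps. PSGL-1, the product of Selplg, binds selectins and lets the cell roll. Integrins, which are pairs of an alpha and a beta subunit, then bind ligands on the vessel wall and on other cells. The beta 2 subunit (Itgb2) pairs with the alpha subunits CD11a (Itgal), CD11b (Itgam) and CD11c (Itgax), and ICAM-1 (Icam1) is a ligand of the first 2 of these pairs. The alpha 4 subunit (Itga4) pairs with beta 1 (Itgb1) into VLA-4, which binds VCAM-1 and fibronectin, or with beta 7 (Itgb7) into a receptor for MAdCAM-1. Eosinophils are known to carry both alpha 4 integrins, whereas mature neutrophils carry little VLA-4. Surface integrin is also regulated by activation and by release from granules, which RNA does not report.

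Levels are FPKM, that is, fragments per kilobase of transcript scaled to library size, summed over the transcripts of a gene. Each treated library was set against the control column of its own table, because the tables had been normalised separately. The IL-33 tables give the same control library 0.945 times (1 h) and 0.947 times (4 h) the values of the IL-4 tables. Change is log2((treated FPKM + 1) / (control FPKM + 1)). A gene is said to rise or fall where this change is at least 1 in size. The steps in low FPKM values put the depth of IL-33 1 h and IL-33 4 h at 1.17 and 1.90 times that of their controls, and that of IL-4 1 h and IL-4 4 h at 0.972 and 1.24 times. The reads behind each member were estimated from the same steps and ranged from 463 (Icam1, IL-4 1 h) to 65227 (Itgam, IL-33 4 h). The intervals given with folds are 95% exact binomial intervals on these estimated reads and cover counting error only.

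Markers of the labelled cell type were high. The summed level of 10 eosinophil markers, such as the granule protein gene Prg2 and the eotaxin receptor gene Ccr3, was between 58423 and 72706 FPKM in the 8 columns of the tables. Markers of other cells were also present. The summed levels were 5899 to 8178 FPKM for 11 neutrophil markers and 2842 to 4349 FPKM for 13 markers of monocytes, macrophages and dendritic cells. They were 366 to 441 for 11 mast cell and basophil markers, where Mcpt4 was listed at 0 in every library but IL-33 1 h, and Tpsab1 and Tpsb2 at 0 in both IL-4 libraries. They were 178 to 210 for 8 erythroid and megakaryocyte markers, 75.8 to 118 for 8 endothelial and stromal markers and 25.6 to 28.8 for 10 lymphoid markers. Most of the endothelial and stromal sum was Pecam1, a gene that leukocytes also express, at 116 FPKM in IL-33 4 h and 79.8 in Control 4 h (log2 change 0.53), where the sums were 118 and 82.3. The other 7 of that list were under 1 FPKM in both libraries, with Tek listed at 0. In these bulk libraries, fewer cells of a type and less RNA per cell cannot be told apart.

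Among untreated cells, Itgb2 and Itgam stood highest of the 9 genes. Itgb2 was at 589 FPKM in Control 4 h and 647 in Control 1 h, and Itgam at 630.3 in Control 4 h and 580 in Control 1 h, so that their order differed between the control libraries. Itgb7, at 238 FPKM in Control 4 h and 279 in Control 1 h, and Selplg, at 190 in Control 4 h and 217 in Control 1 h, followed. Itgb1 and Itgal lay close together, at 68.1 and 58.9 FPKM in Control 4 h and at 69.3 and 61.5 in Control 1 h. Itga4 and Icam1 were low, at 16.9 and 14.7 FPKM in Control 4 h and at 18.7 and 9.95 in Control 1 h. Itgax stood at 34.9 FPKM in Control 4 h and 14.0 in Control 1 h. By level, Itgb2 ranked 183 and Icam1 4929 among all genes in Control 4 h. Itgam was 87.0% of the summed FPKM of the 3 CD11 genes in Control 4 h, and Itgb2 was 65.8% of that of the 3 beta genes.

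**Figure D1:**
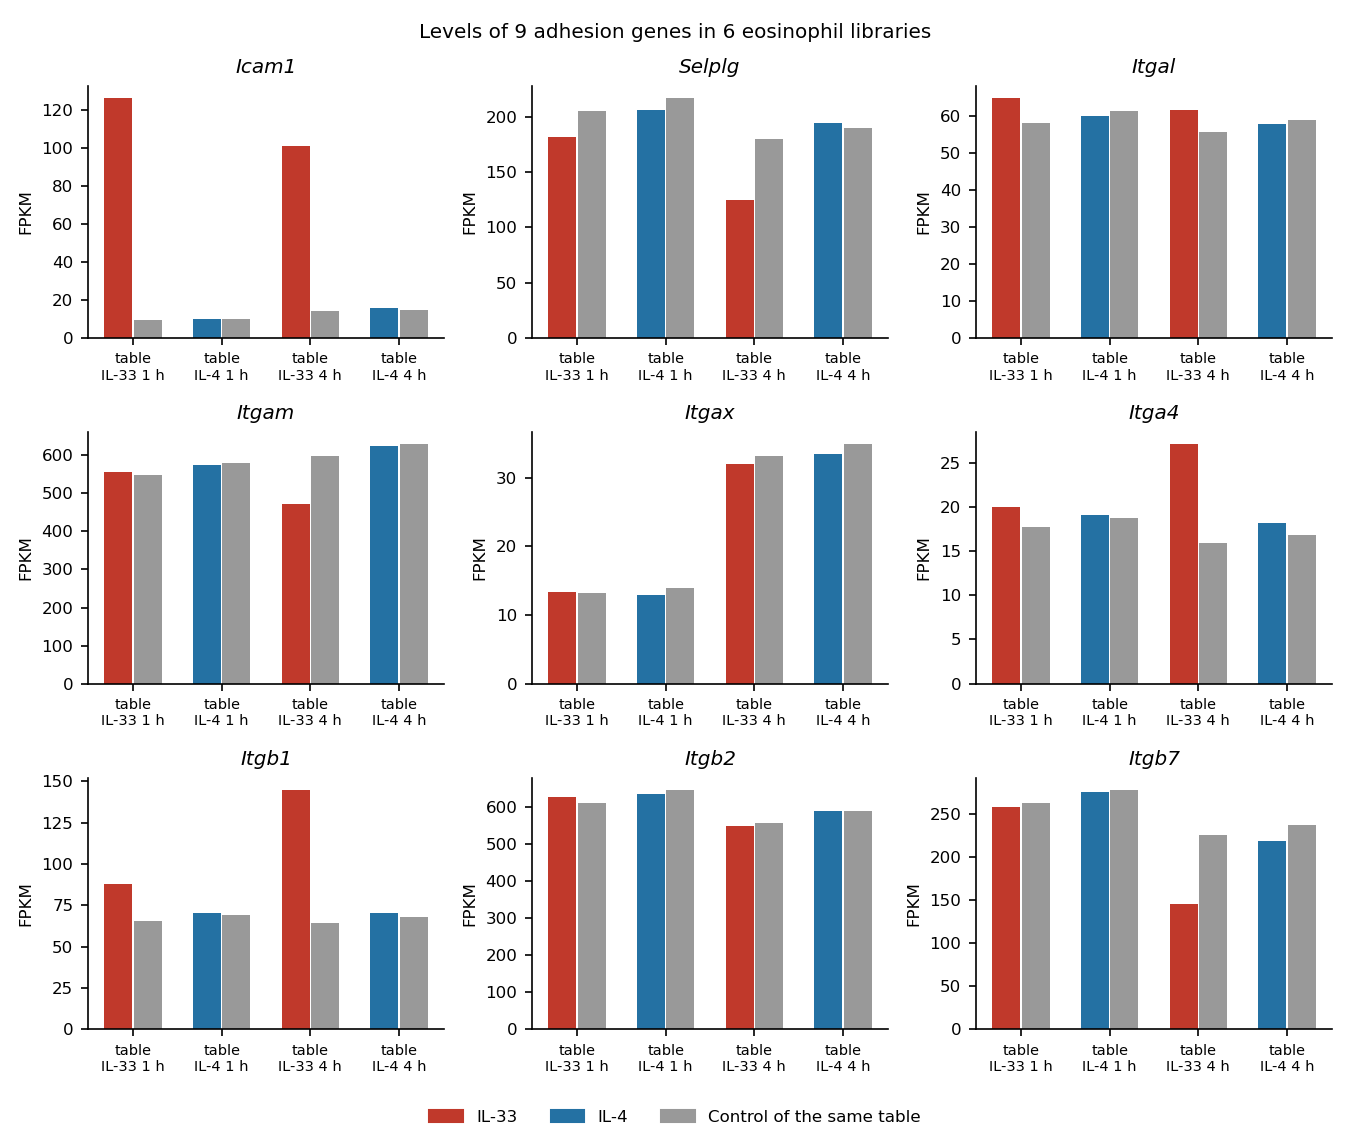
FPKM of the 9 adhesion genes, 1 panel per gene with its own axis; each treated library (red, IL-33; blue, IL-4) stands left of the control column of its own table (grey), and there is 1 library per bar. Icam1 stood at 126 and 101 FPKM with IL-33 and at no more than 15.9 in any other column, Itgb1 reached 145 with IL-33 at 4 h, and Itgax was high in every 4 h column.

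The early response to IL-33 was read against Control 1 h, and Icam1 was the member that rose. ICAM-1 is the immunoglobulin-family ligand that beta 2 integrins bind. Icam1 (NM_010493; chromosome 9 of build mm9, 20820404 to 20833240) stood at 126 FPKM in IL-33 1 h, against 9.40 FPKM in Control 1 h. This is a 13.4-fold difference (interval 12.2 to 14.7) and a log2 change of 3.61. Thus 1 of 9 members was higher, and none was lower, where 2.36% of the 10616 genes compared were higher, 0.669% lower and 3.03% either. Among genes with at least 10 FPKM in either library, as all 9 members had, 3.53% were higher and 0.956% lower. Of all genes compared, 0.443% had a larger change than Icam1. The member with the next largest change was Itgb1, at 87.6 FPKM in IL-33 1 h and 65.5 in Control 1 h (log2 change 0.41, 1.34-fold, interval 1.29 to 1.39), which did not reach the limit. The other members lay between -0.18 (Selplg) and 0.17 (Itga4). The median of the 9 log2 changes was 0.04, beside -0.01 over all genes compared.

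At 4 h, IL-33 was set against Control 4 h to find the later response, and Icam1 and Itgb1 were higher. Icam1 stood at 101 FPKM in IL-33 4 h and 13.9 in Control 4 h, a 7.25-fold difference (interval 6.64 to 7.93; log2 change 2.77). Itgb1, the beta 1 subunit that VLA-4 and the laminin and collagen receptors share, stood at 145 FPKM in IL-33 4 h and 64.5 in Control 4 h. Its log2 change was 1.16 and its fold 2.25 (interval 2.17 to 2.33). These were 2 of 9 members, where 4.15% of the 10803 genes compared were higher, and 3.44% of the genes had a larger change than Itgb1. Among genes with at least 10 FPKM in either library, as all 9 members had, 5.51% were higher and 1.68% lower. No member was lower by the limit, where 1.38% of all genes were, so that 5.53% were past it either way. In the authors' deposited table the q-value of Icam1 is listed as 0 at 1 h and 5.24e-12 at 4 h, and that of Itgb1 at 4 h is 0.0506. Such q-values rest on 2 libraries, 1 per group, and so compare the libraries, not the conditions. Icam1 was the only member in the authors' list of 1593 regulated genes.

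Below the limit, several members differed at 4 h by more than counting error. Itga4, the partner of beta 1 in VLA-4, stood at 27.2 FPKM in IL-33 4 h and 16.0 in Control 4 h (log2 change 0.73; 1.70-fold, interval 1.63 to 1.78). Its deposited locus is shared with that of Cerkl, a gene at 1.04 FPKM in IL-33 4 h and 1.72 in Control 4 h. Itgb7, the other partner of alpha 4, stood at 146 FPKM in IL-33 4 h and 225 in Control 4 h (log2 change -0.63; 0.646-fold, interval 0.629 to 0.664). Selplg stood at 125 FPKM in IL-33 4 h and 180 in Control 4 h (log2 change -0.52; 0.693-fold, interval 0.668 to 0.72), and 9.17% of all genes compared had a lower change. The authors' own calls did not mark Itga4, Itgb7 or Selplg as significant in IL-33 4 h. With IL-4 at 4 h the counting intervals of Itgb7 (0.919-fold, interval 0.893 to 0.945) and Itga4 (1.08-fold, interval 1.02 to 1.14) also left out 1. Whether differences of this size exceed the variation between cultures cannot be told with 1 library per group.

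Of Itgb2 and its alpha partners, none was past the limit at 4 h. Itgam, the CD11b gene, stood at 473 FPKM in IL-33 4 h and 597 in Control 4 h (log2 change -0.34; 0.792-fold, interval 0.782 to 0.801). Its transcripts NM_001082960 and NM_008401 stood at 198 and 275 FPKM in IL-33 4 h against 241 and 356 in Control 4 h, and NM_001082960 held 41.8% of the gene in IL-33 4 h and 40.3% in Control 4 h. In IL-33 4 h and Control 4 h, Itgb2 stood at 549 and 558 FPKM, Itgal at 61.7 and 55.8, and Itgax at 32.0 and 33.1, with log2 changes of -0.02, 0.14 and -0.05. The neutrophil markers, whose cells also express Itgam and Selplg, summed to 5899 FPKM in IL-33 4 h and 7747 in Control 4 h, with 0 of 11 past the limit and a median log2 change of -0.37. The monocyte, macrophage and dendritic cell markers summed to 3540 FPKM in IL-33 4 h and 2842 in Control 4 h. Of the 10 compared, 3 were higher (Cd14, Csf1r and Mrc1). Below the limit, Emr1 (log2 change 0.92), Ly6c1 and Ly6c2 had positive changes. Ccr2 (-0.75), Lyz1, Lyz2 and Cd68 had negative changes, so that the list did not move together. The eosinophil markers summed to 58423 FPKM in IL-33 4 h and 62278 in Control 4 h, with 0 of 10 past the limit. Most of that sum was Prg2, at 41838 FPKM in IL-33 4 h and 44745 in Control 4 h. The median log2 change of the list was -0.12. Its changes ran from -0.89 (Il5ra) and -0.76 (Alox15) to 0.72 (Gata1), so that the sum hides movement within the list. The part of these cells in the changes of the members was not tested.

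**Figure D2:**
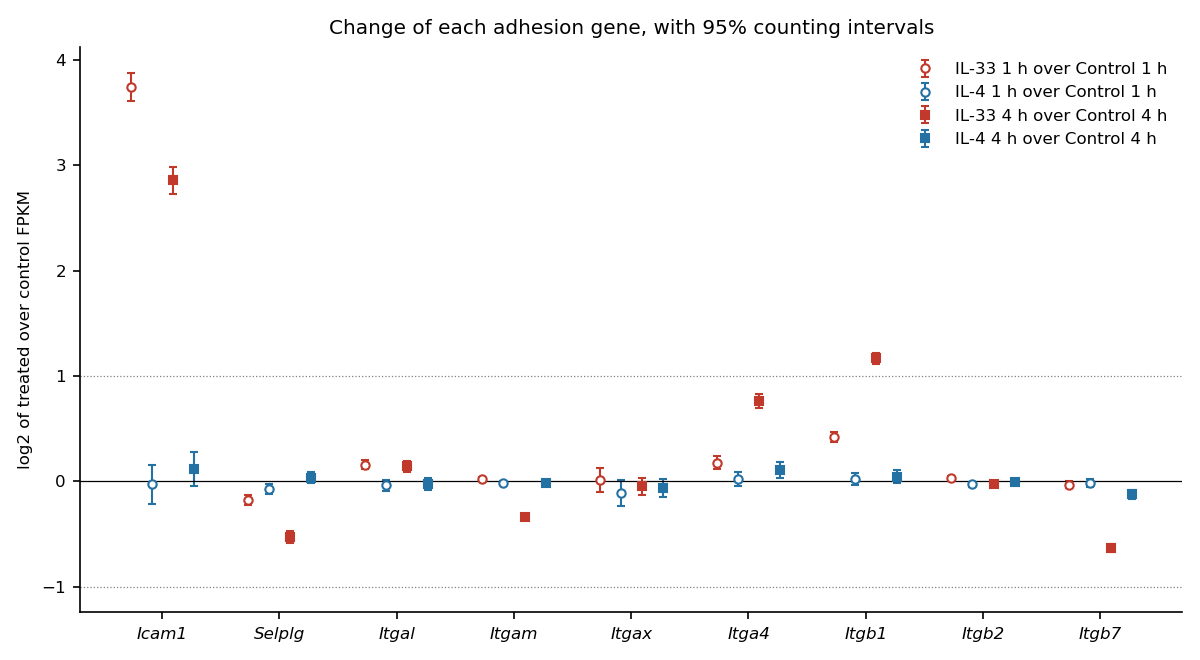
log2 of treated over control FPKM, with no pseudocount, for each adhesion gene and each of the 4 comparisons; bars are 95% counting intervals on estimated reads and dotted lines mark 1 and -1. Icam1 at both times and Itgb1 at 4 h lie above 1 with IL-33, Itga4, Itgb7 and Selplg lie inside the lines at 4 h, and the IL-4 values lie near 0.

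The makeup of the beta subunit transcripts differed as well. Itgb1 made up 17.3% of the summed FPKM of Itgb1, Itgb2 and Itgb7 in IL-33 4 h and 7.61% in Control 4 h. Itgb7 made up 17.3% in IL-33 4 h and 26.6% in Control 4 h. The ratio of Itgb1 to Itgb7 was 0.995 in IL-33 4 h and 0.286 in Control 4 h, while at 1 h it was 0.340 in IL-33 1 h and 0.249 in Control 1 h. The share of Itgb2 was 65.4% in IL-33 4 h and 65.8% in Control 4 h. With IL-4 the ratio of Itgb1 to Itgb7 was 0.255 in IL-4 1 h against 0.249 in Control 1 h, and 0.321 in IL-4 4 h against 0.286 in Control 4 h.

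IL-4 itself was added to show what it does directly, and none of the 9 members was past the limit at either time. In each of these comparisons 0 of 9 members was past it, where 0.828% of the 10628 genes compared at 1 h (0.47% higher, 0.358% lower) and 0.997% of the 10833 at 4 h (0.646% higher, 0.351% lower) were. Icam1 stood at 9.77 FPKM in IL-4 1 h and 9.95 in Control 1 h (0.982-fold, interval 0.862 to 1.12), and at 15.9 in IL-4 4 h and 14.7 in Control 4 h (1.08-fold, interval 0.967 to 1.22). Itgb1 stood at 70.2 FPKM in IL-4 1 h and 69.3 in Control 1 h, and at 70.1 in IL-4 4 h and 68.1 in Control 4 h. The log2 changes of the 9 members lay between -0.11 and 0.02 at 1 h and between -0.12 (Itgb7) and 0.11 (Icam1) at 4 h. Changes under 0.25 in size were seen in 9 of 9 members at each time, and in 93.6% and 90.4% of all genes compared at 1 h and 4 h. Of 8 genes listed as IL-4 and STAT6 targets, 4 were higher in IL-4 1 h than in Control 1 h, among them Socs1, and 7 in IL-4 4 h than in Control 4 h, among them Arg1 and Retnla. With IL-33, 3 of the 8 were higher at 1 h (Cish, Egr2 and Ccl7) and 7 at 4 h, all but Retnla (log2 change 0.65). The list was thus not particular to IL-4. By the limit, Cish rose more with IL-33 and Socs1 more with IL-4 at 1 h. At 4 h Cish and Egr2 rose more with IL-33 and Retnla more with IL-4.

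The cytokines were set against each other by subtracting the IL-4 log2 change of each gene from its IL-33 log2 change, and both rest on the same control library. At 1 h, the difference for Icam1 was 3.64 on the log2 scale, higher with IL-33 and 1 of 9 members where 2.34% of all genes were higher, 0.661% lower and 3.01% either. At 4 h, Icam1 (2.66) and Itgb1 (1.11) were higher with IL-33, 2 of 9 members where 3.66% of all genes were higher, 1.07% lower and 4.73% either. The differences for Itga4, Selplg and Itgb7 at 4 h were 0.63, -0.56 and -0.51.

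**Figure D3:**
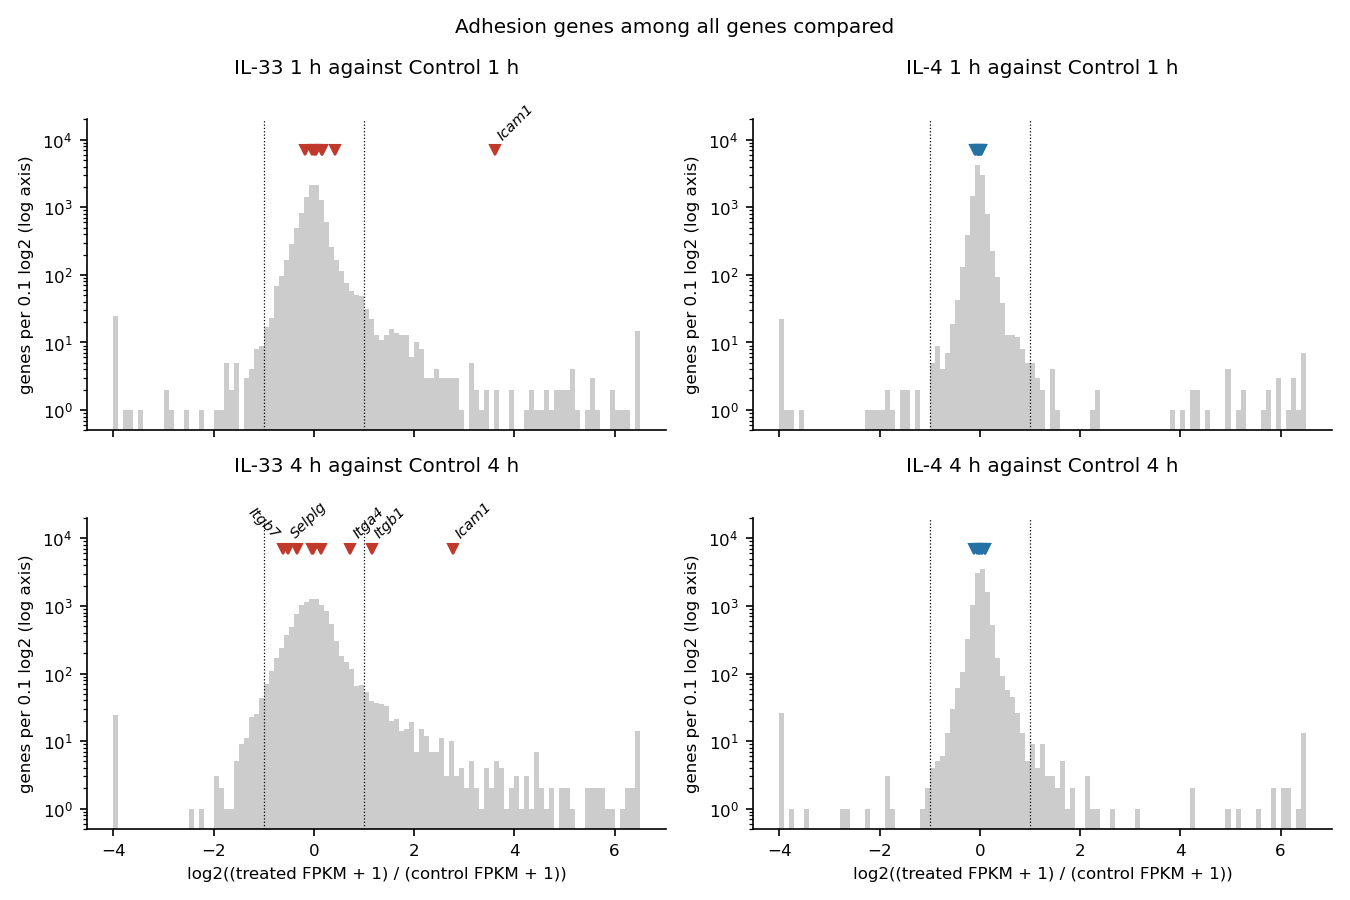
Number of genes (log axis) by log2 change in each of the 4 comparisons, with the 9 adhesion genes as triangles above; dotted lines mark 1 and -1, and values beyond the axis are counted in its end bins. Icam1 lies in the right tail with IL-33 at both times, Itgb1 passes 1 at 4 h, and the triangles of the IL-4 panels stay inside the bulk of all genes.

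Itgax differed between the times of culture. CD11c, its product, is best known as a marker of dendritic cells and is also found on other myeloid cells. Its level was 32.0 FPKM in IL-33 4 h, 33.4 in IL-4 4 h and 34.9 in Control 4 h. It was 13.3 FPKM in IL-33 1 h, 12.9 in IL-4 1 h and 14.0 in Control 1 h. These levels span separately normalised tables. Between the controls of the IL-4 tables, Itgax had a log2 change of 1.26 (Control 4 h over Control 1 h, 2.50-fold, with 2072 and 1123 estimated reads). It was 1 of 9 members that was higher, where 0.879% of the 10813 genes compared were higher, 1.56% lower and 2.44% either. Of the other members, Icam1 was next (0.52), and the rest lay between -0.23 (Itgb7) and 0.12 (Itgam). The median change of all genes in this comparison was 0.10. The neighbouring Itgam gene lies 11.1 kb away from Itgax on chromosome 7 of mm9 (Itgax, NM_021334, 135273082 to 135294171; Itgam, 135206154 to 135262005). The summed markers of monocytes, macrophages and dendritic cells stood at 2842 to 3540 FPKM at 4 h, against 4092 to 4349 at 1 h. Within the list, Ly6c1 and Ly6c2 stood at 667 and 908 FPKM in Control 4 h and at 1238 and 1700 in Control 1 h. Cd14, Emr1, Mrc1 and Flt3 were also lower in Control 4 h. Lyz2 was higher, at 765 FPKM in Control 4 h and 627 in Control 1 h, as were Lyz1, Csf1r, Cd68, Ccr2, Mertk and Cd209a. The markers thus did not move together, and the part of these cells in the Itgax difference was not tested. The dendritic cell markers Flt3 and Cd209a stood at 0.818 and 0.201 FPKM in Control 4 h and at 1.06 and 0.111 in Control 1 h.

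**Figure D4:**
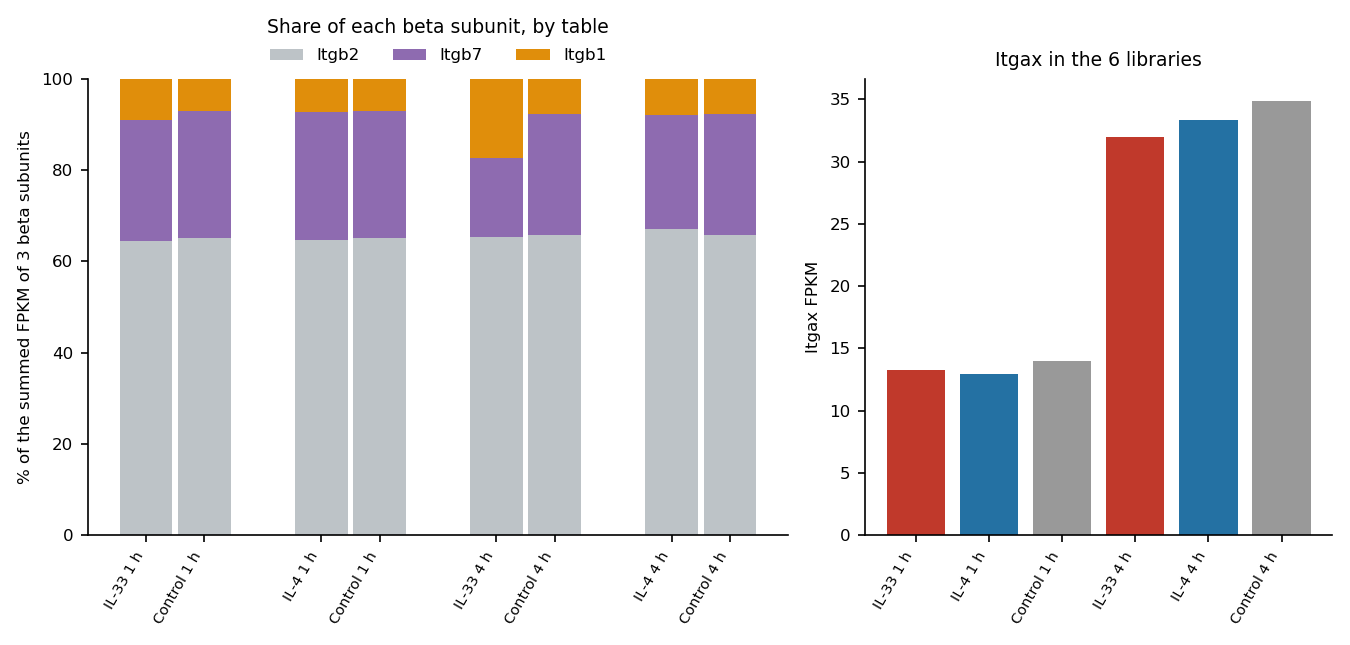
Left, share of each beta subunit gene in the summed FPKM of the 3, for each treated library and the control column of its table; right, FPKM of Itgax in the 6 libraries, with controls from the IL-4 tables. The Itgb1 share was 17.3% in IL-33 4 h against 7.61% in Control 4 h, and Itgax stood at 32.0 to 34.9 FPKM in the 4 h libraries and 12.9 to 14.0 in the 1 h libraries.

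The promoters of the members that rose are shown because Icam1 is known from human cells as a target of NF-kB, the factor that IL-33 signalling activates, and of STAT factors. RefSeq promoter sequences (build GRCm38.p6 of the C57BL/6J reference, whereas the cells were BALB/c; 250 bases before to 50 after the start) matched 6 of the 9 members. Capitals mark the letters of GGANNTTCC (a form of the NF-kB motif), TTCNNNGAA (a STAT motif) and TATAAA, searched on both strands.
Icam1 (chr9:21015690-21015989, + strand): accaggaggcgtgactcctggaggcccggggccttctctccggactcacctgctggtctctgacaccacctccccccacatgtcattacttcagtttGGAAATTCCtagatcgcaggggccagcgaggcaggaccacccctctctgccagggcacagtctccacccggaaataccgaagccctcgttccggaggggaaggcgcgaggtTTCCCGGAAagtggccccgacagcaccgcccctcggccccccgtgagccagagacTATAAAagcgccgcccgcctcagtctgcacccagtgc
Itgb1 (chr8:128685404-128685703, + strand): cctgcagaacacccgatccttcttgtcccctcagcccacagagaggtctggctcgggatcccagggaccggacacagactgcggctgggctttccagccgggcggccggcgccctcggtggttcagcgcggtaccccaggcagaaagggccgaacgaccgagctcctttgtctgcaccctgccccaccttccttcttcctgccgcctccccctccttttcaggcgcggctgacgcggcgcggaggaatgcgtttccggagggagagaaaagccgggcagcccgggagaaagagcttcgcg

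In the Icam1 window, GGANNTTCC begins 153 bases before the start, TTCNNNGAA begins 42 bases before it, and TATAAA begins 14 bases into the transcript as annotated. These motifs occur in 4.26%, 8.30% and 13.6% of 32851 promoters of the same length, and none of the 3 occurs in the promoters of Itga4, Itgam, Itgax, Itgb1 or Itgb7. A longer form of the NF-kB motif, GGGNNTTTCC, was in 0 of the 6 promoters and in 1.63% of all. TTCNNNNGAA, the spacing that STAT6 prefers, was found in the Itgax promoter alone among the 6, and in 6.95% of all. The GC box GGGCGG was in 4 of the 6, including Icam1 and Itgb1, and in 35.7% of all. A match gives letters only and shows no binding in these cells.

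The genes with changes most like those of Icam1 were looked for among 7627 others, by the Euclidean distance over the 4 log2 changes. They were Nfkbia (distance 0.481), Niacr1 (0.783), Nfkb2 (0.801), Slc2a6 (0.841) and Tnfaip3 (0.844). Nfkbia, the gene of the NF-kB inhibitor IkB-alpha, had log2 changes of 3.96 in IL-33 1 h and 3.09 in IL-33 4 h against their controls, beside 3.61 and 2.77 for Icam1. Nfkb2, which encodes an NF-kB subunit, had 2.85 and 2.76. Niacr1 had 3.24 and 2.16, Slc2a6 had 2.87 and 2.40, and Tnfaip3 had 4.39 and 2.83. These genes were picked for their likeness to Icam1 in these same data, so the likeness is no separate result. The cause of the Icam1 rise was not tested.

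Other genes of adhesion were taken from lists, whose counts stand beside the 2.36% (1 h) and 4.15% (4 h) of all genes compared that were higher with IL-33. The first list holds selectins, immunoglobulin-family adhesion genes and other surface genes such as Cd44 and Cd24a. Of its 18 genes compared, 1 was higher with IL-33 at 1 h and 2 at 4 h, with none lower. The median log2 change at 1 h was -0.00 over the list and -0.01 over all genes, and at 4 h -0.06 and -0.03. Vcam1, whose product is the ligand of VLA-4, stood at 103 FPKM in IL-33 1 h and 16.3 in Control 1 h, and at 152 in IL-33 4 h and 28.8 in Control 4 h (log2 changes 2.60 and 2.36). Ceacam1, an immunoglobulin-family receptor, stood at 58.9 FPKM in IL-33 4 h and 17.3 in Control 4 h (1.71). Of 8 other integrin subunits compared at 4 h, Itga5, the alpha subunit of the fibronectin receptor that pairs with beta 1, was higher at 16.1 FPKM in IL-33 4 h against 6.44 in Control 4 h (1.204). Itgae, the alpha subunit that pairs with beta 7, was lower at 0.987 FPKM in IL-33 4 h against 3.96 in Control 4 h (-1.32). Itgae was also higher between the untreated libraries, at 4.18 FPKM in Control 4 h and 0.669 in Control 1 h. At 1 h none of the 6 compared was past the limit, with the platelet integrin genes Itga2b at 94.98 FPKM in IL-33 1 h and 106 in Control 1 h and Itgb3 at 28.7 in IL-33 1 h and 29.3 in Control 1 h.

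The list for integrin activation from inside the cell holds inhibitors of it as well as activators. Of its 22 genes compared, none was past the limit with IL-33 at 1 h and 2 (9.09%) were higher at 4 h. The medians were 0.01 and 0.04, beside -0.01 and -0.03 over all genes. Fyb, the adaptor ADAP, stood at 307 FPKM in IL-33 4 h and 89.0 in Control 4 h (1.78). Rap1b, a small GTPase that switches integrins on, stood at 536 FPKM in IL-33 4 h and 229 in Control 4 h (1.22). Among 31 genes of signalling and cytoskeletal linkage downstream of integrins, 0 were past the limit at 1 h. At 4 h 1 (3.23%) was higher, near the 4.15% of all genes compared. It was the Src-family kinase gene Fgr, at 104 FPKM in IL-33 4 h and 43.7 in Control 4 h (1.23). The medians of this list were 0.11 at 1 h and 0.18 at 4 h, beside -0.01 and -0.03 over all genes. Of 13 enzymes that decorate selectin ligands, none was past the limit at either time, with Gcnt1, which builds the branched glycans of PSGL-1, at 140 FPKM in IL-33 4 h and 142 in Control 4 h. With IL-4, no gene of these 5 lists was past the limit, where only 0.828% of all genes compared at 1 h and 0.997% at 4 h were. The 5 list medians lay between -0.04 and -0.01 at 1 h and between -0.13 and 0.07 at 4 h. Among 10 targets of NF-kB, IL-33 left 9 higher at 1 h, led by Nfkbiz (6.11) and Tnf (5.15), and 10 at 4 h. With IL-4 none of these NF-kB targets was past the limit, of 9 compared at 1 h and 10 at 4 h. The list was chosen with earlier results of these data known, so its counts are no separate support. It also holds Nfkbia, Nfkb2 and Tnfaip3, which were among the genes nearest to Icam1.

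**Figure D5:**
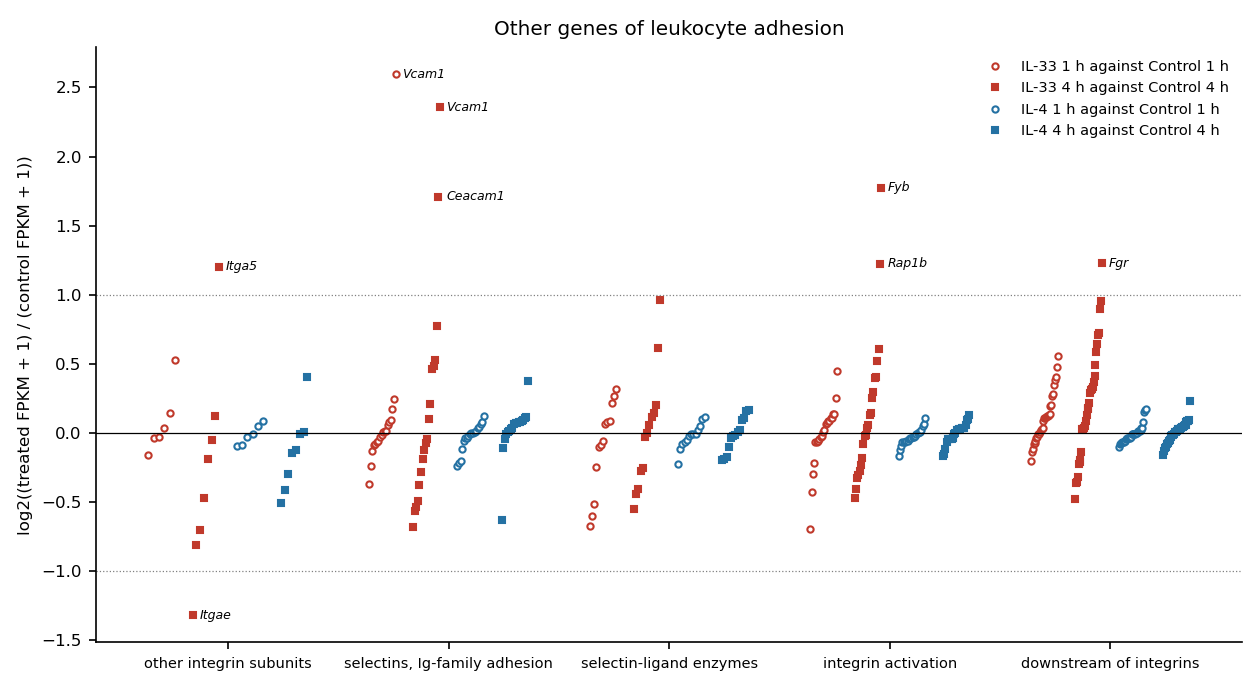
log2((treated FPKM + 1) / (control FPKM + 1)) of each gene compared in 5 lists of adhesion genes outside the 9, for the 4 comparisons; dotted lines mark 1 and -1, and genes past them are named. Vcam1 at both times and Ceacam1, Itga5, Fyb, Rap1b and Fgr at 4 h lie above 1 with IL-33, Itgae lies below -1 at 4 h, and no IL-4 point passes either line.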

How the data were processed

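RNA was sequenced as single-read Illumina libraries, 1 for each of 6 groups, per the labels' protocols. The submitters' processing notes name TopHat 1.4.1, Cuffdiff 1.2.1 and build mm9. The authors deposited FPKM for 28702 RefSeq transcripts in 4 tables of 1 treated and 1 control library, with p-values and q-values for these 2 libraries, and a list of their log2 fold changes. For genes with 1 transcript and a list value other than 0, the list's 4 columns equalled the table of the same cytokine and time in 100% of cases, within 0.01 log2. Whether reads were counted by strand is not given in the sources used here.

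Transcripts were summed per symbol, keeping the locus of highest FPKM. A gene entered a comparison if it reached 1 FPKM in any library of that comparison. The pseudocount was 1, and the limit of 1 log2 stands in place of a test. Starts of loci were made 1-based. Reads were estimated from the FPKM steps of genes with 1 transcript and its GENCODE length, less 200 or 220 bases. Between 68.6% and 70.9% of 1 to 6 read values fell within 0.15 of a whole number, where 30% would by even spread, but the step size was itself chosen to bring values near whole numbers. The log2 changes and the limit were tested on simulated data, and the read estimates were not. Python 3.11.15, pandas 2.3.3 and scipy 1.17.1 were used. Members and lists were chosen with earlier results of these data known. Every member is named. From each list up to 4 genes past the limit are named for a comparison, and otherwise those of highest level in Control 4 h. The 5 genes nearest to the member of largest change are named, small RNA and predicted symbols being passed over.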

Additional observations from a re-analysis of the deposited data

How the results depend on the processing

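No paired analysis was possible because each group has 1 library. Of 297 values of a member under an alternative, 293 kept their side of the limit of 1 log2. The other 4 were all Itgax set against the control of the other time: -1.25 in IL-33 1 h and 1.22 at 4 h, then -1.37 in IL-4 1 h and 1.201 in IL-4 4 h. The members past the limit then numbered 2 in IL-33 1 h (1 as reported), 3 in IL-33 4 h (2), 1 in IL-4 1 h (0) and 1 in IL-4 4 h (0). With a pseudocount of 0.1, no filter on low values, centring on the median change, the most abundant transcript alone or, for the untreated libraries and chosen after seeing the data, the control columns of the IL-33 tables, the count of members was the same in every comparison, and the largest move of a member's log2 change was 0.12. Counts over all genes moved by over 1.5 times in 7 of 33 cases. Against the other control they were 778 for IL-33 1 h (322 as reported), 295 for IL-4 1 h (88) and 280.0 for IL-4 4 h (108). With a pseudocount of 0.1 they were 183 for IL-4 4 h and 459 for Control 4 h against Control 1 h (264). With the most abundant transcript they were 147 and 177 for IL-4 at 1 h and 4 h. The causes were not tested. Depth limits Icam1 most, with 463 to 711 estimated reads without IL-33.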
